A study of Mus musculus with 16 samples.

Results

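The proteasome is the barrel-shaped protease that degrades ubiquitin-tagged proteins, and the mRNAs of 32 of its constitutive subunits are described here in mouse brain cortex. The members are the rows of the deposited count table whose gene symbol is one of 7 subunits of the 20S alpha ring (Psma1 to Psma7), 7 of the 20S beta ring (Psmb1 to Psmb7), 6 ATPases of the 19S cap (Psmc1 to Psmc6) and 12 non-ATPase subunits of that cap. All 32 of the 32 symbols were found among 55385 genes, and all 32 passed the filter on low counts, which left 17555 genes. Polyadenylated RNA was sequenced from the cortex of 16 mice aged 9 months in 4 groups of 4, each with 2 females and 2 males. The groups were 5xFAD-Dp16, which carries both genotypes, 5xFAD, Dp16 and wild-type C57BL/6J. As background, 5xFAD mice are a transgenic model of familial Alzheimer's disease whose transgenes are driven in neurons by the Thy1 promoter, and in Dp16 mice a distal segment of chromosome 16, syntenic to a large part of human chromosome 21, is duplicated. The strain background of the genetically altered groups, the litters and any sequencing batches are not in the sources used. The p-values of the fits set group differences against the spread between these libraries, part of which may be technical.

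The 20S core is a stack of rings: the alpha rings gate the entrance, and the beta rings hold the catalytic sites of Psmb6 (caspase-like), Psmb7 (trypsin-like) and Psmb5 (chymotrypsin-like). The 19S cap binds ubiquitin chains, removes them and feeds the unfolded protein into the core with its ring of ATPases. Interferon-induced subunits, Psmb9, Psmb10 and Psmb8, can take the places of Psmb6, Psmb7 and Psmb5 and give the immunoproteasome, which in brain is known mainly from microglia. Subunit genes are known to be transcribed in concert, with the transcription factor Nfe2l1 raising them when the proteasome is inhibited.

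Library totals were 16874481 to 22912168 counts. Markers of excitatory neurons were above 0 in every library for 6 of 6 genes, as were the 6 markers each of inhibitory neurons, astrocytes and oligodendrocytes, as the labelled tissue would have, though markers of choroid plexus and of striatal neurons were above 0 in every library too. Markers of choroid plexus, which a cortical dissection can carry along, ranged widely in summed level: 7.93 to 1946 in 5xFAD-Dp16, 14.1 to 538 in 5xFAD, 6.23 to 1052 in Dp16 and 9.91 to 263 in wild-type (RPKM, reads per kilobase of gene length scaled to library total). The summed RPKM of striatal neuron markers was 282 to 334 in 5xFAD-Dp16, 142 to 283 in 5xFAD, 120.3 to 342 in Dp16 and 176 to 361 in wild-type. The part of these tissues in the subunit values was not tested.

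Of the 32 members, 26 had a promoter window (250 bases before to 50 after the start) in the RefSeq table on GRCm38.p6. Psmb1, Psmb2, Psmb7, Psmc3, Psmd3 and Psmd7 were not in it. The windows of 2 catalytic subunits are shown with those of the immunoproteasome subunits that replace them, since the results below set these pairs against each other. Capitals mark in Psmb5 and Psmb6 a match to the core of the antioxidant response element (TGACNNNGC), the kind of site that Nfe2l1 and Nfe2l2 are known to bind, in Psmb8 a match to the interferon-gamma-activated element (TTCNNNGAA), and in Psmb9 a CCAAT box read on the other strand.
Psmb5 (chr14:54617946-54618245, minus strand, match starting at −47): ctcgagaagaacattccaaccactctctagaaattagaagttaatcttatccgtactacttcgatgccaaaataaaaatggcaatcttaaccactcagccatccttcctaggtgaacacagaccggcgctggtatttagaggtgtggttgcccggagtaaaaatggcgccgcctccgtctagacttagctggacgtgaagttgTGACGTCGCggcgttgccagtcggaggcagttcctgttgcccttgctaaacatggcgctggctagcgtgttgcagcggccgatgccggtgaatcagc
Psmb8 (chr17:34197945-34198244, plus strand, match starting at −97): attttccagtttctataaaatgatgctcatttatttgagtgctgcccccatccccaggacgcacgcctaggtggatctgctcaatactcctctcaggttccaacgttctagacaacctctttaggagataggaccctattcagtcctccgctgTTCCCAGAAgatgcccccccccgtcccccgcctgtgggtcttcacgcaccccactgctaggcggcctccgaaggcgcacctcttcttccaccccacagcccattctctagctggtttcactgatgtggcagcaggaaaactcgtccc
Psmb6 (chr11:70525107-70525406, plus strand, match starting at −9): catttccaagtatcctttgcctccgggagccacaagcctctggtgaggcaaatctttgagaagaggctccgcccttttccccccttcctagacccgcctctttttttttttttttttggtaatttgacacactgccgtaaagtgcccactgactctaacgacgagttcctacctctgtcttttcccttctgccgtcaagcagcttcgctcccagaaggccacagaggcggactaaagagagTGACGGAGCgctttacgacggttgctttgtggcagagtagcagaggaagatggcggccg
Psmb9 (chr17:34187281-34187580, minus strand, match starting at −8): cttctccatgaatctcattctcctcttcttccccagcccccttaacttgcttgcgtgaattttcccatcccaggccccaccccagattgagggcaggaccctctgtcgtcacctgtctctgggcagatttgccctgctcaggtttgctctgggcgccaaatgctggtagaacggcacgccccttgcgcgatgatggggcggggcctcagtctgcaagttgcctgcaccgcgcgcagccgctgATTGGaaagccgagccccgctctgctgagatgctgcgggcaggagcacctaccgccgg

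Both strands were searched, and a gene was counted if any of its windows held a match. The antioxidant response element core was present in 5 of 26 members (Psmb5, Psmb6, Psmc6, Psmd12 and Adrm1) and in 13.99% of 27025 genes. The CCAAT box (CCAAT) was present in 11 of 26, against 41.06% of all genes. The ETS site CCGGAAG was present in 11 of 26 members, against 9.93% of all genes. Its holders were Psma6, Psmc1, Psmc2, Psmc6, Psmd2, Psmd4, Psmd6, Psmd11, Psmd12, Psmd13 and Adrm1. The interferon-gamma-activated element was found in 1 of the 26 members, Psmd2, against 9.55% of all genes. A pattern like the interferon-stimulated response element is TTTC followed after any 2 bases by TTTC again. It was found in 2 of the 26 members, Psmb3 and Psmd4, against 3.99% of all genes, and in 0 of the 3 immunoproteasome genes. These are matches of letters in a window and not measured binding.

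The subunit mRNAs were abundant and differed in level from gene to gene. Per length, Psmb6 had the highest mean over the 16 libraries, 325 RPKM, and Psmd11, a lid subunit that clamps the cap to the core, the lowest, 18.7 RPKM. The subunits' summed level was 2919 to 3823 RPKM in 5xFAD-Dp16, 2431 to 3739 in 5xFAD, 2863 to 4432 in Dp16 and 2373 to 5495 in wild-type. The wild-type group thus held both the lowest and the highest library of all 16.

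**Figure D1:**
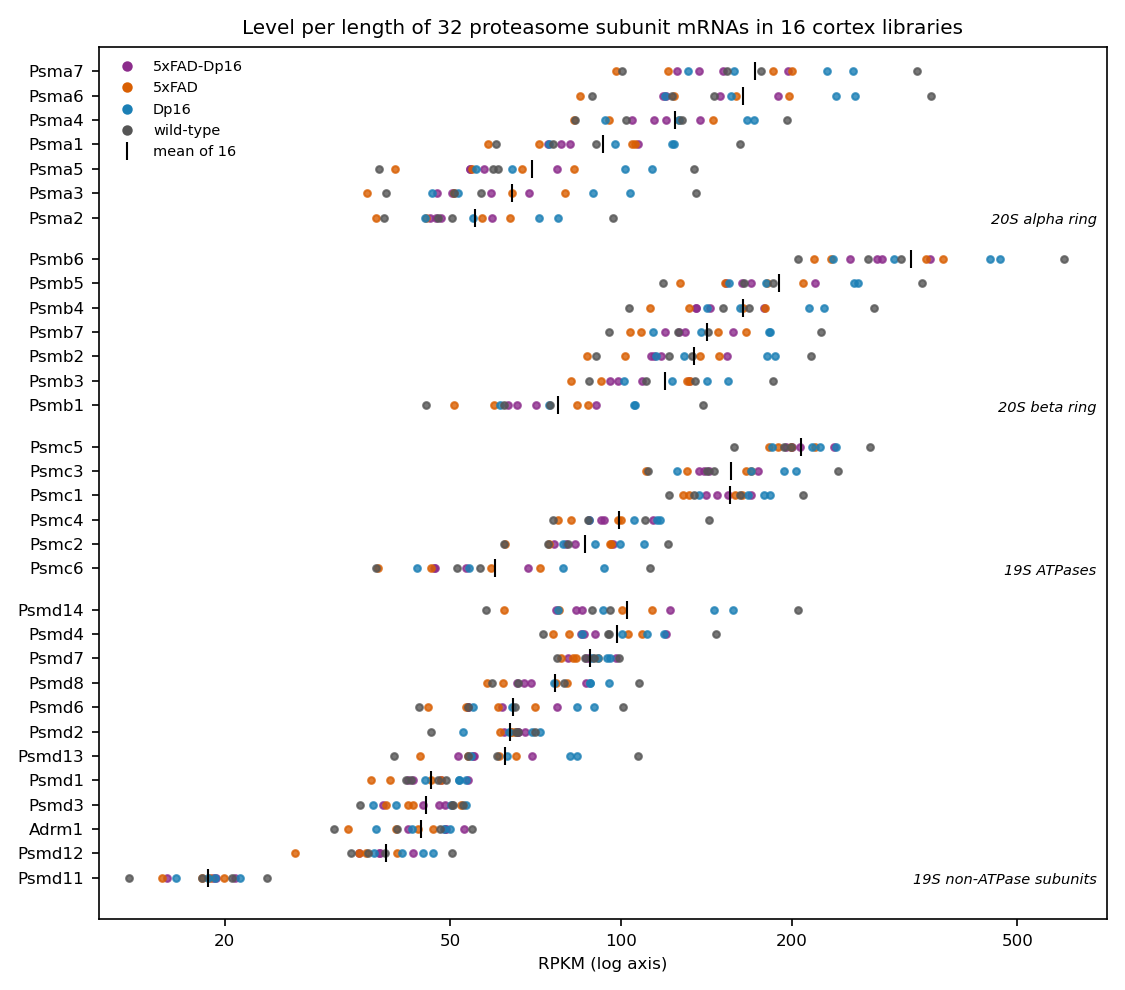
Level per length (RPKM, log axis) of the 32 subunit mRNAs, 1 point per library, coloured by group, with a bar at the mean of 16 libraries. The spread between libraries of 1 group was as wide as that between groups, and 1 wild-type library lay to the right of all others for most of the 20S genes.

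In the alpha ring, Psma7 had the highest mean level and Psma2 the lowest. Psma7 had 137, 197, 126 and 151 RPKM in 5xFAD-Dp16, 98.1, 185, 121 and 200.2 in 5xFAD, 132, 158, 257 and 231 in Dp16 and 100.5, 177, 333 and 154 in wild-type. Psma2 had 47.2, 59.3, 48.1 and 45.9 RPKM in 5xFAD-Dp16, 36.9, 56.9, 45.4 and 63.8 in 5xFAD, 45.2, 54.9, 77.5 and 71.8 in Dp16 and 38.3, 50.3, 96.9 and 47.6 in wild-type. In both, wild-type replicate 3 was the highest library of the study, and the other 3 wild-type libraries lay within the range of the 5xFAD and 5xFAD-Dp16 libraries.

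The catalytic subunits of the beta ring were also highest in wild-type replicate 3. Psmb6 had 282, 351, 254 and 288 RPKM in 5xFAD-Dp16, 219, 345, 235 and 370.1 in 5xFAD, 236, 303, 467 and 447 in Dp16 and 205, 312, 605 and 272 in wild-type. Psmb7 had 126, 158, 119 and 129 RPKM in 5xFAD-Dp16, 104, 148, 109 and 166 in 5xFAD, 114, 138, 184 and 182 in Dp16 and 95.3, 143, 226 and 126 in wild-type. Psmb5 had 169.6, 219.9, 153 and 163 RPKM in 5xFAD-Dp16, 127, 181, 153 and 209.8 in 5xFAD, 155, 180.3, 262 and 258 in Dp16 and 118, 185, 339.9 and 165 in wild-type. Wild-type replicate 1 was the lowest and wild-type replicate 3 the highest of the 16 libraries for each of the 3 genes, and the 4 groups overlapped. Among the structural beta subunits, Psmb1 had the lowest mean RPKM of the ring, 65.5, 90.3, 63.3 and 70.8 RPKM in 5xFAD-Dp16, 50.7, 83.6, 59.8 and 87.4 in 5xFAD, 61.1, 74.5, 106 and 105 in Dp16 and 45.3, 74.9, 139 and 62.2 in wild-type. That rank rests on the gene length of 3427 bases used for RPKM, beside a transcript length of 1758 bases. In counts scaled to library size after TMM scaling (CPM) Psmb1 was not the lowest, at 154 to 557, against 60.8 to 166 for Psmb3. Psmb3 had 109, 132, 98.9 and 95.6 RPKM in 5xFAD-Dp16, 81.5, 133, 92.1 and 131 in 5xFAD, 101, 123, 142 and 154 in Dp16 and 87.8, 135, 185 and 111 in wild-type. For Psmb3 the lowest library was 5xFAD replicate 1 and the highest again wild-type replicate 3.

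Among the ATPases, which unfold substrates and thread them into the core, Psmc5 had the highest mean level and Psmc6 the lowest. Psmc5 had 207, 238, 196 and 199.98 RPKM in 5xFAD-Dp16, 183, 219.6, 189 and 199.7 in 5xFAD, 184, 217, 224 and 239.7 in Dp16 and 158, 194, 275 and 199 in wild-type. Psmc6 had 46.7, 68.5, 47.1 and 53.3 RPKM in 5xFAD-Dp16, 37.2, 58.9, 46.2 and 72.0 in 5xFAD, 43.7, 54.0, 93.2 and 78.9 in Dp16 and 36.9, 56.5, 113 and 51.4 in wild-type. Psmc5 spanned 2.05-fold between its lowest and highest library on the CPM scale (counts scaled to library size after TMM scaling), and Psmc6 3.62-fold.

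The non-ATPase subunits were more varied. Psmd14, the deubiquitinase that strips ubiquitin chains from substrates, had 76.9, 122, 83.4 and 85.4 RPKM in 5xFAD-Dp16, 62.2, 100.2, 77.8 and 114 in 5xFAD, 77.3, 92.8, 157 and 146 in Dp16 and 57.9, 95.7, 205 and 89.0 in wild-type. It followed the core genes, with wild-type replicate 3 at the top. Psmd11 had 20.8, 19.1, 19.3 and 15.8 RPKM in 5xFAD-Dp16, 19.96, 15.5, 18.2 and 18.8 in 5xFAD, 21.2, 19.2, 16.4 and 18.7 in Dp16 and 23.7, 20.6, 13.6 and 18.2 in wild-type. Here wild-type replicate 1 was the highest library, and wild-type replicate 3 was the lowest in RPKM but lay above 2 other libraries in CPM. Psmd12, a lid subunit, had 37.4, 43.0, 37.5 and 34.5 RPKM in 5xFAD-Dp16, 26.6, 34.5, 35.6 and 40.3 in 5xFAD, 36.6, 41.1, 44.7 and 46.5 in Dp16 and 33.4, 38.4, 50.2 and 35.8 in wild-type. Psmd1, the large scaffold of the base, had 43.0, 53.8, 48.2 and 42.1 RPKM in 5xFAD-Dp16, 36.2, 48.2, 39.2 and 46.3 in 5xFAD, 45.0, 53.4, 51.7 and 51.8 in Dp16 and 41.7, 47.6, 49.2 and 42.6 in wild-type. Psmd8, a lid subunit, had 65.5, 86.6, 67.3 and 69.5 RPKM in 5xFAD-Dp16, 58.1, 80.5, 61.9 and 76.8 in 5xFAD, 76.3, 88.3, 88.0 and 95.2 in Dp16 and 59.2, 79.3, 107 and 65.8 in wild-type. Wild-type replicate 3 was the highest library for Psmd12 and Psmd8, while for Psmd1 it lay below 4 other libraries in RPKM and above all others in CPM (TMM-scaled). Adrm1, a ubiquitin receptor of the cap, had 52.8, 48.9, 49.2 and 42.2 RPKM in 5xFAD-Dp16, 46.5, 43.9, 33.0 and 40.1 in 5xFAD, 48.8, 49.9, 37.0 and 42.8 in Dp16 and 48.0, 54.5, 31.2 and 40.3 in wild-type. Its highest library was wild-type replicate 2, and its lowest was wild-type replicate 3 in RPKM and 5xFAD replicate 3 in CPM, with the groups overlapping.

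Most of the subunit mRNAs moved together from library to library. The level of each member was expressed as its deviation, in log2 CPM, from its own mean over 16 libraries. The median deviation of the 32 members was −0.18, 0.20, −0.22 and −0.17 in 5xFAD-Dp16, −0.53, 0.09, −0.27 and 0.13 in 5xFAD, −0.23, 0.02, 0.51 and 0.43 in Dp16 and −0.51, −0.01, 0.91 and −0.17 in wild-type (replicates 1 to 4 of each group). Wild-type replicate 3 stood highest, Dp16 replicates 3 and 4 came next, and 5xFAD replicate 1 and wild-type replicate 1 were lowest. In bulk tissue, fewer cells with a high level and less mRNA per cell cannot be told apart.

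For these correlations the mean of each group was first subtracted from the deviations, so differences between groups do not enter them. For 28 of the 32 members the values then tracked the median of the other members. Pearson r was 0.874 (Psmd1) to 0.997 (Psmb1) over the 16 libraries. Without wild-type replicate 3 the range was 0.833 (Psmd1) to 0.993 (Psmb1). These values are descriptions: the genes share libraries, scaling and the dependence on length described below. The other 4 members went the opposite way: r was −0.703 for Psmd2, −0.803 for Psmd3, −0.639 for Psmd11 and −0.420 for Adrm1. With wild-type replicate 3 left out these values were −0.431 for Psmd2, −0.751 for Psmd3, −0.443 for Psmd11 and −0.155 for Adrm1, so the opposite direction of Adrm1 was weak without that library. All 4 belong to the cap and were singled out after their values were seen.

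**Figure D2:**
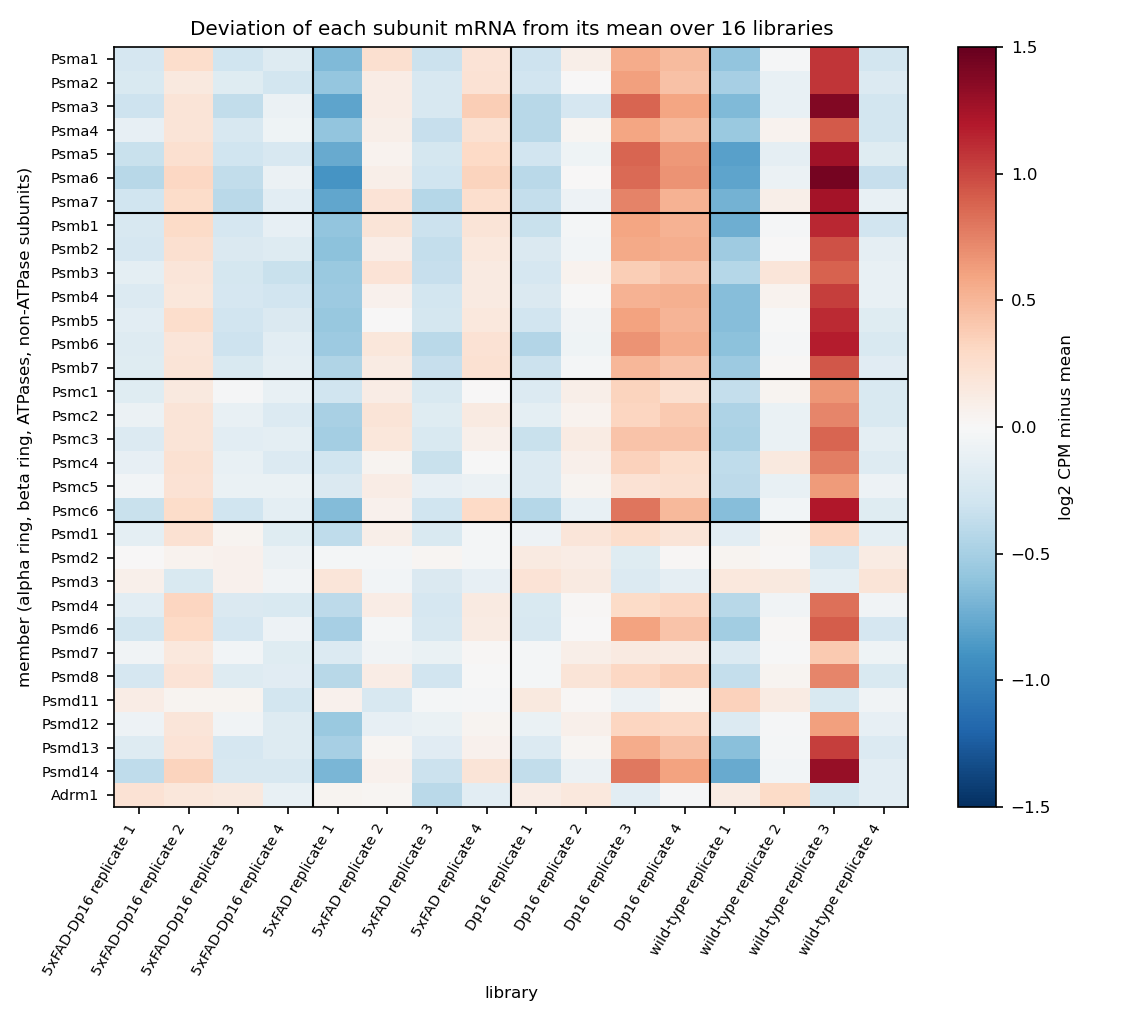
Deviation of each subunit mRNA (rows, grouped by ring and cap) from its own mean over 16 libraries, in log2 CPM, with libraries in columns by group. Wild-type replicate 3 is red over 28 rows and blue in Psmd2, Psmd3, Psmd11 and Adrm1, and wild-type replicate 1 and 5xFAD replicate 1 are blue over most rows.

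Psmd2, which docks the shuttle proteins that deliver ubiquitinated substrates, had 65.8, 65.8, 67.7 and 62.2 RPKM in 5xFAD-Dp16, 63.9, 61.2, 64.9 and 63.9 in 5xFAD, 72.1, 69.8, 52.6 and 63.5 in Dp16 and 65.8, 65.4, 46.1 and 70.5 in wild-type. Psmd3, a lid subunit, had 48.8, 38.1, 47.7 and 44.7 RPKM in 5xFAD-Dp16, 52.2, 43.0, 38.5 and 42.1 in 5xFAD, 53.3, 50.2, 36.5 and 40.1 in Dp16 and 50.6, 50.4, 34.6 and 52.6 in wild-type. Wild-type replicate 3 was the lowest library for both in RPKM. On the CPM scale it was the lowest for Psmd2, while for Psmd3 it lay above 3 other libraries. Psmd2 (chromosome 16, 20651652 to 20663414 on GRCm38) was the only member on chromosome 16 and lay outside the segment duplicated in Dp16 (75540514 to 97962622). No member lay inside that segment.

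The size of the shift differed by role. In wild-type replicate 3, the median deviation was 1.25 over the alpha ring, 1.03 over the beta ring, 0.75 over the ATPases and 0.51 over the non-ATPase subunits (log2 CPM). The last median includes the 4 members that went the opposite way. Coding lengths also differed by role, at 702 to 789 bases in the alpha ring and 603 to 831 in the beta ring. They were 1167 to 1425 bases in the ATPases and 930 to 2859 in the non-ATPase subunits. The part of length in these differences was not tested. The largest was 1.43, in Psma6 of the alpha ring. Psma6 also had the widest span, 4.98-fold from lowest to highest library, and Psmd2 the narrowest, 1.30-fold. The alpha ring genes varied more between libraries than the non-ATPase genes, with a median SD over libraries of 0.53 for the alpha ring and 0.23 for the non-ATPase subunits.

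The same libraries differed in how their levels depended on gene length. The length slope of a library is the change of its log2 CPM deviation per doubling of gene length over protein-coding genes, and a negative slope means that short genes stood relatively high. The slopes were 0.0190, −0.112, 0.157 and 0.0787 in 5xFAD-Dp16, 0.156, −0.129, 0.124 and −0.0654 in 5xFAD, 0.139, −0.0167, −0.171 and −0.181 in Dp16 and 0.281, 0.00182, −0.439 and 0.158 in wild-type. The 3 libraries with the highest proteasome level, wild-type replicate 3 and Dp16 replicates 3 and 4, were the 3 with the lowest slope, and wild-type replicate 1, with the highest slope, had the second lowest proteasome level. Both measures come from the same counts, and the part of gene length, RNA quality or library preparation in the proteasome values was not tested.

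**Figure D3:**
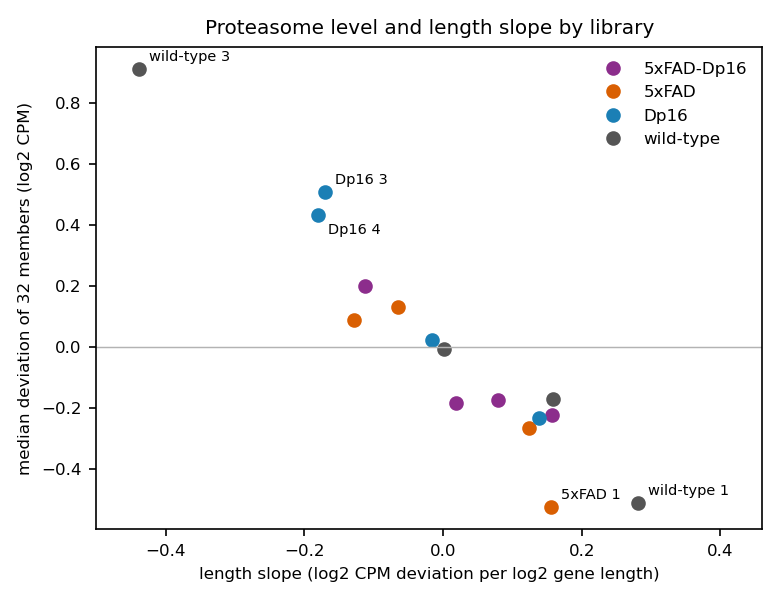
Median deviation of the 32 members (log2 CPM) against the length slope of each of the 16 libraries, coloured by group. Libraries with a negative slope lie above 0 and those with a positive slope below it. Wild-type replicates 3 and 1 are the extremes of the slope. The median deviation is highest in wild-type replicate 3 and lowest in 5xFAD replicate 1.

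Members were set beside other protein-coding genes of the same length. In wild-type replicate 3, the 4 members with a gene length under 1000 bases had a median deviation of 1.03, beside 0.97 over 618 protein-coding genes of that length. The 17 members of 1000 to 2000 bases had a median of 0.92, beside 0.52 over 2653 genes. The 11 members of 2000 to 4000 bases had a median of 0.73, beside −0.03 over 5701 genes. By gene length, the members were thus close to other genes in the shortest class, which held only 4 members, all of the beta ring. They were higher than other genes in the longer classes. Psma2 and Psma3, with gene lengths of 2911 and 2846 bases, deviated by 1.08 and 1.39, while Psmd11, of 2965 bases, deviated by −0.23. Their coding lengths differed, at 702 bases for Psma2, 765 for Psma3 and 1266 for Psmd11. Over the 32 members, which share this library, Pearson r of the deviation in wild-type replicate 3 was −0.365 with gene length and −0.691 with coding length. With transcript length it was −0.354. Over 14731 protein-coding genes tested the 3 measures were alike, with r of −0.470 for gene length, −0.476 for coding length and −0.481 for transcript length. By coding length, 16 members under 1000 bases had a median of 1.09, beside 0.47 over 4569 genes. The 14 members of 1000 to 2000 coding bases had 0.73, beside −0.11 over 5643 genes. The 2 members of 2000 to 4000 coding bases had 0.04, beside −0.53 over 3426 genes. In coding length the members thus lay above other genes in the shortest class too.

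Genes outside the proteasome shifted as well in this library. A list of 24 nuclear genes of the mitochondrial respiratory chain had a median deviation of 1.05 in wild-type replicate 3 and between −0.62 and 0.57 in the other 15 libraries, with 23 of 24 above their mean in that library. Among the marker lists, the median in that library was −0.82 over excitatory neurons, −0.71 over astrocytes, −1.18 over endothelium, −0.23 over microglia, −1.08 over choroid plexus, −0.52 over striatal neurons, 0.17 over inhibitory neurons and 0.21 over oligodendrocytes. In the other libraries the first 3 of these ranged from −0.55 to 0.44 (excitatory neurons), −0.50 to 0.80 (astrocytes) and −0.83 to 0.84 (endothelium). The remaining lists lay within the range of the other libraries, for example −0.90 to 1.29 for microglia and −1.04 to 0.55 for striatal neurons. The excitatory markers were split: 2 lay above their mean in wild-type replicate 3 and 4 below. All 6 astrocyte and all 6 endothelium markers lay below. The part of these cell types in the subunit values was not tested. Fold changes of the members against wild-type are therefore given with and without wild-type replicate 3.

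The comparison of 5xFAD-Dp16 with wild-type asks what both genotypes together do to the subunits. No member passed the test: 0 of 32 were called by edgeR's quasi-likelihood test at a Benjamini-Hochberg adjusted p under 0.05, where 0.501% of all genes tested were called, and 0 had an unadjusted p under 0.05. DESeq2 and limma-trend called 0 members as well. Fold changes of 30 of the 32 members were below 0, as were 58% of all genes tested. The members' median log2 fold change was −0.23, beside −0.04 over all genes tested, and single values ran from −0.44 (Psma7) to 0.10 (Adrm1). The member of smallest p was Psmb3, at −0.36 ± 0.26 (SE; unadjusted p = 0.190, edgeR adjusted p = 1.00). Without wild-type replicate 3 the members' median was 0.18, 29 of 32 were above 0 (51.5% of all genes), and Psmb3 stood at 0.02 ± 0.19.

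The comparison of 5xFAD with wild-type addresses the amyloid transgenes alone. Again 0 of 32 members were called by edgeR (background 1.52% of genes tested), 0 by DESeq2 and 0 by limma-trend, and 0 had an unadjusted p under 0.05 in the edgeR test. All 32 fold changes were below 0, as were 58.8% of all genes tested, with a median of −0.29 beside −0.05 over all genes. By role the medians were −0.37 for the alpha ring, −0.34 for the beta ring, −0.21 for the ATPases and −0.20 for the non-ATPase subunits. The catalytic subunits had log2 fold changes of −0.35 ± 0.35 (Psmb6), −0.25 ± 0.29 (Psmb7) and −0.37 ± 0.33 (Psmb5; SE), smaller than or about as large as their errors. Psmd12 had the smallest p, 0.172 unadjusted, at −0.28 ± 0.19 (edgeR adjusted p = 0.939).

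The direction of this comparison changed when 1 control library was left out. Without wild-type replicate 3, 26 of 32 fold changes were above 0 (49.8% of all genes) and the median was 0.13, with all 7 alpha ring, all 7 beta ring and all 6 ATPase genes above 0. Psmb6, Psmb7 and Psmb5 then stood at 0.19 ± 0.24, 0.17 ± 0.20 and 0.15 ± 0.22. Again 0 members were called by edgeR, and 0 had an unadjusted p under 0.05. Without wild-type replicate 1, the lowest control, the median was −0.45.

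**Figure D4:**
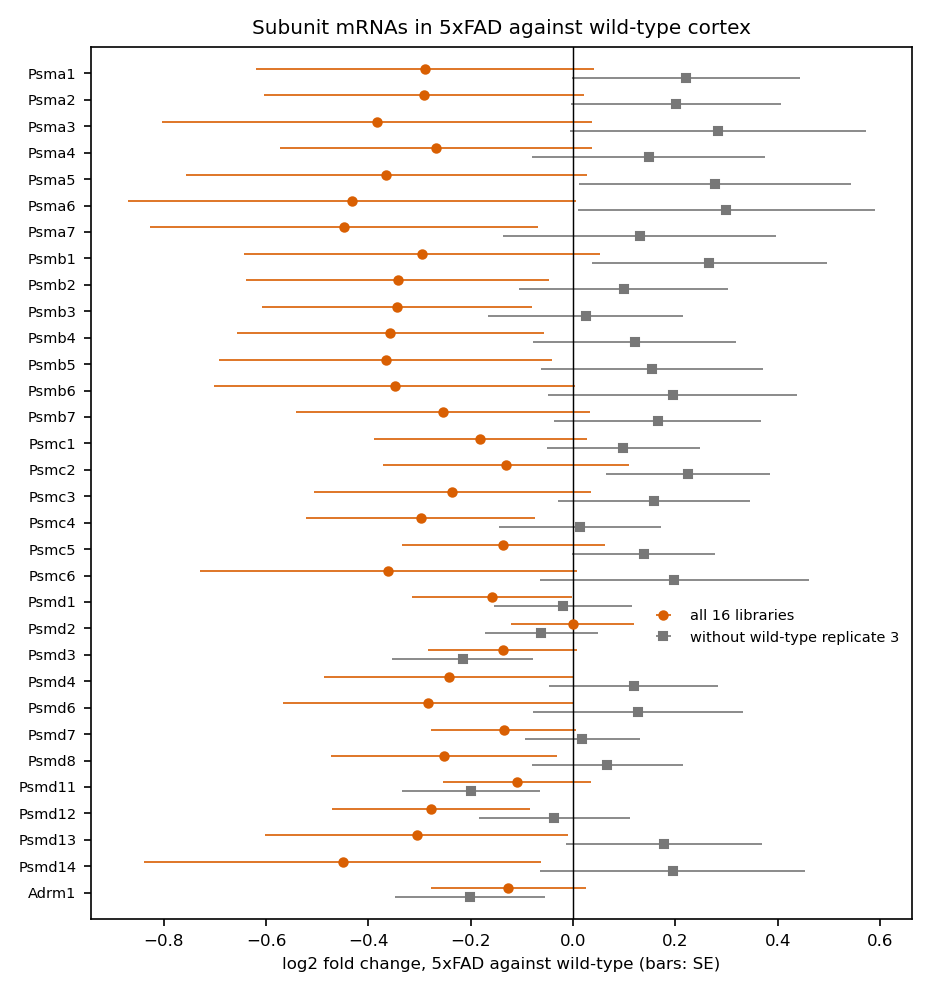
Log2 fold change of each subunit mRNA in 5xFAD against wild-type cortex, with bars of 1 SE, from all 16 libraries (orange circles) and without wild-type replicate 3 (grey squares). The orange values lie at or below 0 for all 32 members, and 26 of the 32 grey values lie above 0.

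The comparison of Dp16 with wild-type addresses the duplication alone. Of the 32 members 0 were called by edgeR, where 0.0057% of all genes tested were called, 0 by DESeq2 and 0 by limma-trend, and 0 had an unadjusted p under 0.05. The median log2 fold change was 0.03, beside −0.03 over all genes tested, and 8 of 32 values were below 0, against 57.1% of all genes. Psmd1 had the smallest p, at 0.12 ± 0.16 (SE; unadjusted p = 0.448, edgeR adjusted p = 1.00). Without wild-type replicate 3 the median was 0.50 and 28 of 32 values were above 0 (50.5% of all genes). Then 22 members had an unadjusted p under 0.05, as had 18.1% of all genes, and 0 were called by edgeR, the smallest adjusted p being 0.272. Without wild-type replicate 1 the median was −0.14. Dp16 replicates 3 and 4 were the libraries that stood next to wild-type replicate 3 in proteasome level and in length slope.

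The comparison of 5xFAD-Dp16 with 5xFAD, in which both groups carry the transgenes, addresses the duplication on their background. Called by edgeR were 0 of 32 members (0.0057% of genes tested), by DESeq2 0 and by limma-trend 0, with 0 at an unadjusted p under 0.05. The median log2 fold change was 0.03, beside 0.00 over all genes tested, 7 of 32 values were below 0 against 49.1% of all genes, and values ran from −0.05 (Psma3) to 0.22 (Adrm1). Adrm1, with 0.22 ± 0.15 (SE; unadjusted p = 0.159, edgeR adjusted p = 1.00), had the smallest p. The median was −0.10 without 5xFAD-Dp16 replicate 2 and −0.09 without 5xFAD replicate 1.

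The comparison of 5xFAD-Dp16 with Dp16 does not use the wild-type libraries for its means. Of 32 members 0 were called by edgeR (background 0.387%), 0 by DESeq2 and 0 by limma-trend, and 0 had an unadjusted p under 0.05. The median log2 fold change was −0.30, beside 0.01 over all genes tested, and 31 of 32 values were below 0, against 48.8% of all genes. Psmd8 had the smallest p, at −0.31 ± 0.22 (SE; unadjusted p = 0.180, edgeR adjusted p = 0.980). The median was −0.16 without Dp16 replicate 3 and −0.20 without Dp16 replicate 4. Without these 2 libraries and wild-type replicate 3, the 3 of lowest length slope, it was 0.01.

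Pooled over Dp16 status, the 8 libraries with the transgenes against the 8 without them gave a median of −0.28 over the members and −0.02 over all genes, with 32 of 32 values below 0 against 54.2% of all genes. Again 0 were called by edgeR (background 2.18%), 0 by DESeq2, 0 by limma-trend and 0 at an unadjusted p under 0.05. The smallest p was that of Psmd8, at −0.28 ± 0.16 (SE; unadjusted p = 0.0915, edgeR adjusted p = 0.674). With no filter on low counts 0 members were called, and 15 had an unadjusted p under 0.05 in this pooled comparison, against 8.65% of all genes. In that fit 3 members had such a p in 5xFAD-Dp16 against wild-type (4.67% of all genes), 3 in 5xFAD against wild-type (5.63%) and 5 in 5xFAD-Dp16 against Dp16 (4.49%). The median of the pooled comparison was −0.09 without wild-type replicate 3 and 0.10 without the 3 libraries of lowest length slope. Pooled over 5xFAD status, the duplication gave a median of 0.04 beside −0.02 over all genes, 7 of 32 values below 0 (53.7% of all genes) and 0 of 32 called by edgeR (background 0.0968%), DESeq2 and limma-trend and 0 at an unadjusted p under 0.05. That median was 0.26 without wild-type replicate 3, with 11 members at an unadjusted p under 0.05 (13.6% of all genes) and 0 called. The interaction of both genotypes, the difference of the transgenes' effect with and without the duplication, had a median of −0.01 beside 0.04 over all genes, with 18 of 32 values below 0 (42.9% of all genes), and 0 of 32 were called by edgeR (background 0%), DESeq2 and limma-trend. At an unadjusted p under 0.05 there were 0. Its median was −0.44 without wild-type replicate 3. The comparisons with wild-type share the same 4 control libraries and are not independent of each other.

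With the length slope of each library as a covariate, the standard errors of the members were smaller, 0.07 to 0.14 in 5xFAD against wild-type instead of 0.12 to 0.44. All 32 log2 fold changes of that comparison remained below 0, from −0.25 (Psma7) to −0.01 (Psmd2), with a median of −0.14 beside −0.01 over all genes. Called by edgeR were 0 (1.29% of genes tested called lower), and 8 had an unadjusted p under 0.05, as had 18.8% of all genes. In the pooled comparison of libraries with and without the transgenes, 1 of 32 members was called, Psmb3, a structural beta subunit, lower at −0.17 ± 0.05 (SE; edgeR adjusted p = 0.0384), where 1.36% of genes tested were called lower. For Psmb3, 8 libraries with the transgenes at 81.5 to 133 RPKM overlapped the 8 without at 87.8 to 185 RPKM. There 8 members had an unadjusted p under 0.05, as had 18.6% of all genes. In a fit chosen after seeing the data, with a block of replicate numbers added to the slope although those numbers were not found to pair the libraries, 5 members were called lower in 5xFAD against wild-type (Psma7, Psmb2, Psmb3, Psmb4 and Psmc4), where 3.65% of genes tested were called lower, and 7 in the pooled comparison, where 4.18% were. The slope was computed from the same counts that it adjusts.

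Among the immunoproteasome subunits, 1 of 3 passed the test in 5xFAD against wild-type, as did 1.52% of all genes tested. Psmb8, which takes the place of Psmb5, had 14.1, 10.02, 7.10 and 12.7 RPKM in 5xFAD-Dp16, 11.6, 10.8, 14.8 and 24.3 in 5xFAD, 3.30, 5.95, 8.25 and 5.54 in Dp16 and 2.91, 3.33, 5.72 and 4.58 in wild-type. No 5xFAD or 5xFAD-Dp16 library overlapped the wild-type libraries. It rose in 5xFAD against wild-type by 1.85 ± 0.34 on the log2 scale (SE; edgeR adjusted p = 0.00795) and in the pooled comparison by 1.36 ± 0.24 (adjusted p = 0.00318). In 5xFAD-Dp16 against wild-type the value was 1.30 ± 0.33 (edgeR adjusted p = 0.141), which did not pass; DESeq2 called it. With the libraries of 5xFAD and wild-type alone in the fit, Psmb8 was not called in that comparison. Leaving out wild-type replicate 3, it was 2.07 ± 0.35 in 5xFAD (edgeR adjusted p = 0.00350) and 1.54 ± 0.35 in 5xFAD-Dp16 (adjusted p = 0.0553) against wild-type.

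Psmb9, which takes the place of Psmb6, had 6.45, 4.81, 2.98 and 5.45 RPKM in 5xFAD-Dp16, 6.59, 5.60, 5.78 and 14.1 in 5xFAD, 2.41, 2.36, 3.76 and 2.56 in Dp16 and 1.05, 1.28, 4.17 and 2.84 in wild-type. The 5xFAD libraries lay above all wild-type libraries, whereas those of 5xFAD-Dp16 overlapped wild-type through replicate 3 of each group. In 5xFAD against wild-type its log2 fold change was 1.70 ± 0.45 (SE; edgeR adjusted p = 0.0871), which did not pass. It passed without wild-type replicate 3, at 2.22 ± 0.41 (edgeR adjusted p = 0.00776). Psmb10, which takes the place of Psmb7, had 42.5, 49.3, 40.9 and 42.2 RPKM in 5xFAD-Dp16, 38.8, 52.9, 41.5 and 53.4 in 5xFAD, 41.7, 46.4, 56.0 and 57.4 in Dp16 and 34.2, 42.1, 68.4 and 44.8 in wild-type. All 4 groups overlapped, wild-type replicate 3 was the highest and wild-type replicate 1 the lowest library, and the log2 fold change in 5xFAD against wild-type was −0.10 ± 0.24 (SE; edgeR adjusted p = 0.983). The value of Psmb10 without wild-type replicate 3 was 0.25 ± 0.16 (adjusted p = 0.547).

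Each immunoproteasome subunit was divided by its constitutive counterpart within a library, both per length. This does not remove a library's length slope, since gene lengths differ within pairs. They were 1628 bases for Psmb8 against 899 for Psmb5, and 1352 for Psmb9 against 798 for Psmb6. The counterpart also enters the ratio. In 5xFAD against wild-type the Psmb8 to Psmb5 ratio differed by 2.05 (log2), beside edgeR fold changes of 1.85 for Psmb8 and −0.37 for Psmb5. As a percentage of Psmb5, Psmb8 was 8.34, 4.56, 4.64 and 7.81% in 5xFAD-Dp16, 9.17, 5.95, 9.68 and 11.6 in 5xFAD, 2.13, 3.30, 3.15 and 2.15 in Dp16 and 2.46, 1.80, 1.68 and 2.77 in wild-type. The 8 libraries with the transgenes lay above the 8 without them. The ratio was 2.86-fold higher in 5xFAD-Dp16 than in wild-type, 4.15-fold higher in 5xFAD than in wild-type and 2.32-fold higher in 5xFAD-Dp16 than in Dp16, each with no overlap and an exact two-sided permutation p = 0.0286. That is the smallest p that 4 against 4 libraries allow, and adjusted over the 15 ratio tests it was 0.0714, which did not pass the threshold of 0.05.

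As a percentage of Psmb6, Psmb9 was 2.29, 1.37, 1.17 and 1.89% in 5xFAD-Dp16, 3.01, 1.62, 2.46 and 3.80 in 5xFAD, 1.02, 0.779, 0.805 and 0.571 in Dp16 and 0.512, 0.412, 0.689 and 1.04 in wild-type. Again every library with the transgenes lay above every library without them. The folds were 2.60 in 5xFAD-Dp16 against wild-type, 4.17 in 5xFAD against wild-type and 2.09 in 5xFAD-Dp16 against Dp16, with the same exact permutation p = 0.0286 and adjusted p = 0.0714. Between 5xFAD-Dp16 and 5xFAD both ratios overlapped, at 0.689-fold for Psmb8 to Psmb5 (exact permutation p = 0.143, adjusted p = 0.238) and 0.624-fold for Psmb9 to Psmb6 (exact permutation p = 0.114, adjusted p = 0.238).

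As a percentage of Psmb7, Psmb10 was 33.6, 31.2, 34.2 and 32.6% in 5xFAD-Dp16, 37.3, 35.7, 38.3 and 32.1 in 5xFAD, 36.6, 33.5, 30.5 and 31.4 in Dp16 and 35.9, 29.5, 30.3 and 35.5 in wild-type. This ratio overlapped between all groups, and its folds ran from 0.920 in 5xFAD-Dp16 against 5xFAD to 1.09 in 5xFAD against wild-type. In wild-type replicate 3 the ratios of Psmb9 and Psmb10 lay inside the range of the other wild-type libraries and that of Psmb8 just below it. Microglia and macrophage markers moved with the first ratios: their summed RPKM was 637 to 1417 in 5xFAD-Dp16, 1407 to 1869 in 5xFAD, 362 to 453 in Dp16 and 370.0 to 500.1 in wild-type. Of 8 such markers 7 were called higher in 5xFAD against wild-type, where 1.52% of all genes tested were called in either direction. In 5xFAD-Dp16 against wild-type 2 were called higher, where 0.501% of all genes tested were called in either direction. The part of the number of microglia in the ratios was not tested.

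**Figure D5:**
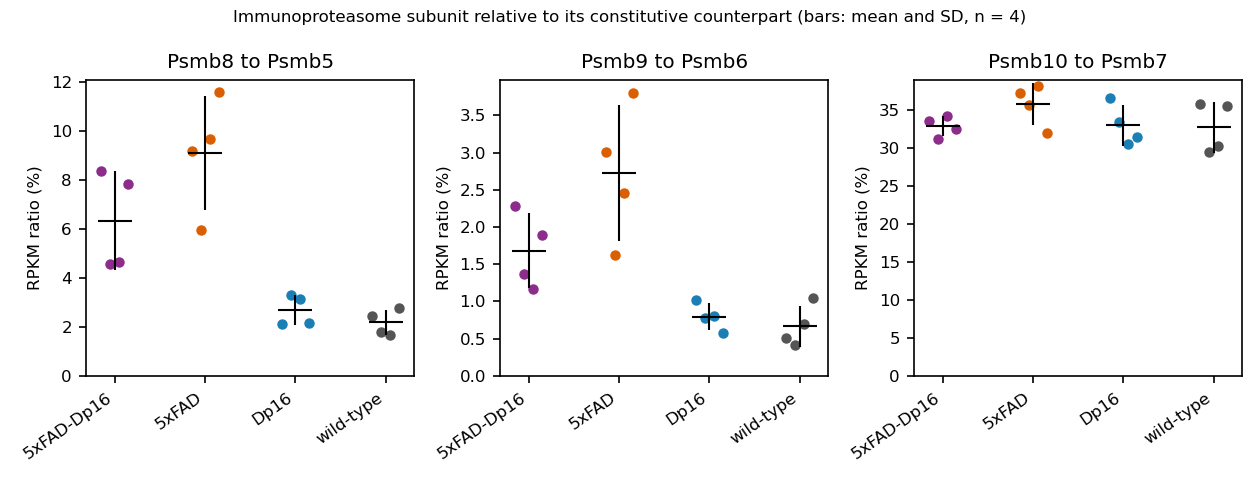
RPKM ratio in percent of each immunoproteasome subunit to the constitutive subunit it replaces, 1 point per library, with the mean and SD of 4 libraries per group. Psmb8 to Psmb5 and Psmb9 to Psmb6 are higher in 5xFAD-Dp16 and 5xFAD than in Dp16 and wild-type without overlap, and Psmb10 to Psmb7 overlaps between all groups.

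Around the core subunits, the assembly chaperones had fold changes of similar size to the members'. Of 9 listed chaperones 8 were tested. Of these 0 were called by edgeR in any of the 5 pairwise comparisons (0.0057% to 1.52% of all genes tested). Their median log2 fold change was −0.27 in 5xFAD-Dp16 against wild-type and −0.31 in 5xFAD against wild-type, and 8 of 8 lay above their mean in wild-type replicate 3. Without that library the medians were 0.21 in 5xFAD-Dp16 and 0.13 in 5xFAD against wild-type, with 0 called. Psmg1, which helps to build the alpha ring, is in the segment duplicated in Dp16 (chromosome 16, 95979933 to 95990960). It had 28.6, 32.7, 21.6 and 25.8 RPKM in 5xFAD-Dp16, 12.9, 19.4, 13.8 and 16.4 in 5xFAD, 20.9, 30.1, 32.2 and 32.7 in Dp16 and 14.4, 16.2, 30.5 and 14.04 in wild-type. The 5xFAD-Dp16 libraries lay above all 5xFAD libraries, and those of Dp16 lay above 3 of the 4 wild-type libraries, wild-type replicate 3 being within the Dp16 range.

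The log2 fold change of Psmg1 was 0.77 ± 0.29 in 5xFAD-Dp16 against 5xFAD (SE; edgeR adjusted p = 1.00) and 0.57 ± 0.29 in Dp16 against wild-type (adjusted p = 1.00). Once the fit included each library's length slope, both passed the test, at 0.81 ± 0.10 (edgeR adjusted p = 6.45e-05) and 0.54 ± 0.10 (adjusted p = 0.00864). In Dp16 against wild-type the value without wild-type replicate 3 was 1.02 ± 0.21. The members' median was 0.03 in each of these 2 comparisons. The share of all genes called with the length slope in the fit is not given here for them. Nor is the share of all genes whose groups did not overlap.

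The activators Psme1 and Psme2, which form a cap that opens the core without ubiquitin, did not pass the test. Psme1 had 71.6, 82.1, 48.8 and 67.0 RPKM in 5xFAD-Dp16, 60.4, 81.0, 65.3 and 101 in 5xFAD, 46.6, 65.2, 77.0 and 86.6 in Dp16 and 38.6, 65.4, 104 and 50 in wild-type. Psme2 had 39.1, 51.2, 34.3 and 41.2 RPKM in 5xFAD-Dp16, 32.2, 46.3, 38.5 and 63.6 in 5xFAD, 30.3, 40.7, 51.0 and 53.3 in Dp16 and 20.7, 41.5, 68.1 and 33.4 in wild-type. All groups overlapped, with log2 fold changes in 5xFAD against wild-type of 0.17 ± 0.32 and 0.04 ± 0.34 (SE; edgeR adjusted p = 0.979 and 0.998). They were, with wild-type replicate 3 left out, 0.63 ± 0.24 for Psme1 and 0.57 ± 0.25 for Psme2 (edgeR adjusted p = 0.330 and 0.396). In the fit that included the length slope Psme1 was called higher in 5xFAD against wild-type, at 0.33 ± 0.09 (edgeR adjusted p = 0.0269). There 18.8% of all genes tested had an unadjusted edgeR p under 0.05. Of the 5 activators and inhibitors, the 10 proteasome-associated factors and the 5 ubiquitin and E1 genes, 0 were called by edgeR in any of the 5 pairwise comparisons. In these comparisons 0.0057% to 1.52% of all genes tested were called.

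Among 7 regulators of proteasome genes, Nfe2l1 had 60.5, 53.1, 65.1 and 63.2 RPKM in 5xFAD-Dp16, 64.6, 49.5, 59.1 and 51.5 in 5xFAD, 67.2, 58.4, 44.0 and 49.2 in Dp16 and 68.5, 57.4, 31.9 and 66.1 in wild-type. It was lowest in wild-type replicate 3, the library with the highest proteasome level, and highest in wild-type replicate 1. Its gene length was 4867 bases, longer than that of any member. Its log2 fold change was −0.02 ± 0.18 in 5xFAD against wild-type (SE; edgeR adjusted p = 0.998) and −0.19 ± 0.14 without wild-type replicate 3 (adjusted p = 0.603). Nfe2l2, the regulator of antioxidant genes, had 11.8, 8.60, 8.83 and 11.1 RPKM in 5xFAD-Dp16, 13.4, 7.49, 12.4 and 8.84 in 5xFAD, 8.01, 8.15, 5.80 and 6.34 in Dp16 and 7.64, 5.33, 4.20 and 7.28 in wild-type. The 5xFAD-Dp16 libraries lay above all wild-type libraries, and 1 of the 5xFAD libraries overlapped them. Nfe2l2 rose in the pooled comparison of libraries with and without the transgenes, by 0.59 ± 0.13 on the log2 scale (SE; edgeR adjusted p = 0.0227). It was the only one of the 7 regulators called in that comparison, where 2.18% of all genes tested were called. The call was lost, at adjusted p of 0.0515 to 0.0594, in 7 of 16 fits that left out 1 library and in the fit without the 3 libraries of lowest length slope.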

How the data were processed

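Per the labels' protocols, TRIzol RNA of brain cortex was poly-A selected, made into strand-specific libraries and sequenced as paired ends. The submitters' processing notes name HTSeq 0.6.1, HISAT2 2.1.0, SAMtools 1.5 and FastQC 0.11.5, with build GRCm38. The strand setting of the counting is not stated there. The authors deposited raw read counts per gene (55385 genes, GENCODE M24, per the file headers), without normalization. They also deposited RPKM values, scaled by gene length and library total. Coordinates came from GENCODE M21 on the same build.

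Counts were tested with edgeR 4.0.16 (R 4.3.3; TMM, filterByExpr with a minimum count of 10, robust quasi-likelihood fit of all 16 libraries, sex as covariate), with Benjamini-Hochberg adjustment over 17555 genes and a threshold of 0.05. SEs derive from the F statistic. Ratios of RPKM values were tested on the log2 scale by exact two-sided permutation. Ranks of libraries and overlaps of groups are on the RPKM scale unless CPM is named. Alternatives were DESeq2 1.42.0, RLE size factors, no filter, no sex term, a replicate block, only the 2 groups compared, limma-trend (limma 3.58.1) on log2(RPKM + 0.1) and log2(RPKM + 1), the length slope as covariate, a length trend as offset, and leaving out single libraries or the 3 of lowest slope. The fit with slope and replicate block together was chosen after seeing the data. The members and lists were chosen with earlier results of these data known. Of 148 listed symbols 147 were found; Paaf1 was not analysed here. Values in every library are given for the catalytic subunits, the members of highest and lowest mean RPKM in each of the 4 groups of subunits, the member of smallest p in each comparison, Psmb8, Psmb9, Psmb10, Psmg1, Psme1, Psme2, Nfe2l1 and any called gene of the lists; Psma3, Psma6, Psmd2 and Psmd3 were named after their values were seen. Same-numbered replicates of different groups did not deviate together throughout (r from −0.354 to 0.514), so replicate numbers were not taken as pairs.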

Additional observations from a re-analysis of the deposited data

Results flagged for a closer look

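In 128 sets of 4 libraries (32 members in 4 groups), 13 had 1 library whose gap to the nearest of the others relative to the group's range was above Dixon's 95% critical value; chance flags about 1 set in 20, and the members move together, so these are not 13 separate events. In 10 of them 5xFAD-Dp16 replicate 2 stood above the rest of its group: Psma1 at 133 CPM, Psma5 at 96.2, Psmb2 at 133, Psmb4 at 213, Psmc3 at 358, Psmc5 at 314, Psmd4 at 222, Psmd8 at 192, Psmd13 at 139 and Psmd14 at 189 CPM. The other 3 libraries of the group had, for example, 64.7 to 68.6 CPM for Psma5 and 115 to 127 CPM for Psmd14. Its summed RPKM of the 32 members was 3823, against 2919 to 3053 in the other 3. In wild-type replicate 3, Psma2 was at 329 CPM, against 110.4 to 144 in the other wild-type libraries, and Psma3 at 450.0 CPM, against 109 to 158. Psmd2 was at 192 CPM in 5xFAD replicate 3, against 184.1 to 184.5 CPM in the other 5xFAD libraries, a difference of small size in a tight group. Length slopes were −0.112 in 5xFAD-Dp16 replicate 2, the lowest of its group, and −0.439 in wild-type replicate 3; their part in these values was not tested.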

How the results depend on the processing

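Of 1165 recomputed values, 1103 stayed on their side of the threshold or, for medians and ratios, within 1 SD between replicates. Of the 944 that are not counts, 56 changed sign, 32 of them medians of the members, 10 ratios and 14 single genes, and 38 of the 56 moved by less than 1 SD between replicates. Of 221 counts of called members, 218 were 0. The exceptions were 1 (length slope as covariate, pooled 5xFAD effect) and, with the slope and the replicate block together, 5 in 5xFAD against wild-type and 7 in the pooled effect, all lower. The replicate block alone called 0 members, with medians of −0.17 in 5xFAD-Dp16 against wild-type and −0.22 in 5xFAD against wild-type, and the numbers do not pair the samples. Without the 3 libraries of lowest length slope the members' medians were 0.206 in 5xFAD-Dp16 and 0.164 in 5xFAD against wild-type, and in 5xFAD against wild-type Psmb5 (0.185), Psmb6 (0.224), Psmb7 (0.195) and Psmb10 (0.277) and in 5xFAD-Dp16 against wild-type Psmb3 (0.0403) turned positive. Leaving out each library in turn moved the medians from −0.405 to 0.181 (5xFAD-Dp16 against wild-type), −0.448 to 0.134 (5xFAD against wild-type), −0.135 to 0.498 (Dp16 against wild-type) and −0.439 to 0.172 (interaction). Without wild-type replicate 3 the values were 0.181, 0.134, 0.498 and −0.439 in the same order. In 5xFAD against wild-type such fits gave −0.566 to 0.154 for Psmb5, −0.547 to 0.195 for Psmb6, −0.429 to 0.165 for Psmb7, −0.253 to 0.249 for Psmb10 and −0.0285 to 0.626 for Psme1, and in 5xFAD-Dp16 against wild-type −0.522 to 0.02 for Psmb3. limma-trend gave Psmb10 0.0122 and 0.0114 (pseudocounts 0.1 and 1). Psmb8 in 5xFAD against wild-type was not called when only those 2 groups were fitted (adjusted p = 0.0914). The cause of these changes was not tested. With 4 libraries a group, SEs of 0.12 to 0.44 (log2, 5xFAD against wild-type) limit what could be detected for the members.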
